A study of Mus musculus with 11 samples.

Results

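The 10 genes described here encode ligands and antagonists of the TGF-beta, activin and GDF family: the ligand genes Tgfb1, Tgfb2, Tgfb3, Inhba, Inhbb and Gdf15, the secreted antagonists Fst, Fstl3 and Wfikkn2, and the intracellular antagonist Smad7. They were picked by symbol from the 45260 genes listed in both the pancreas and the adipose count tables, and they were picked with their counts in control and OA-AP libraries already known. Their own fold changes are therefore given as descriptions without p-values. Pancreas libraries numbered 2 for control and 3 for OA-AP mice, and libraries of epididymal fat 3 for each, from wild-type male mice labelled C57BL/6 (C57BL/6J in the study's methods) and aged 16 weeks. OA-AP stands for obesity-related alcohol-induced acute pancreatitis. The OA-AP mice were fed high-fat chow over 12 weeks, then injected intraperitoneally with ethanol at 2 g/kg, 2 times with 1 h between them, while control mice ate normal chow for the same 12 weeks and received saline. Tissue was taken 12 h after the first injection. No group received the diet or the ethanol alone, so diet, ethanol and pancreatitis cannot be told apart.

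Ligands of this family are dimers that bind a pair of type I and type II receptor kinases at the cell surface. The activated receptors phosphorylate Smad proteins, which enter the nucleus with Smad4 and regulate transcription. TGF-betas are secreted in a latent complex held in the matrix and must be released, activins are dimers of inhibin beta subunits, and follistatin-type proteins trap activins and myostatin outside the cell. In the pancreas the family is known for driving stellate cells to make matrix, and in adipose tissue for regulating adipocyte precursors and lipid storage. Gdf15 is a divergent member that rises in many kinds of cell stress.

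Of 3 members the results turn on, the DNA upstream of the transcription start in RefSeq (GRCm38.p6) is shown. Wfikkn2 and Inhbb were the most changed members in the pancreas, and Inhba changed in adipose tissue while it was nearly undetected in the pancreas. The stretches are written 5′ to 3′ on the coding strand, and capitals mark a GC box in Inhbb and a TATAAA in Inhba.
Wfikkn2, chr11:94242708-94242829, minus strand, 122 bases: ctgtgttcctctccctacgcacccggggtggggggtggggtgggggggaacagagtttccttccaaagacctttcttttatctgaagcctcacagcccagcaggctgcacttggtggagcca
Inhbb, chr1:119422249-119422498, minus strand, 250 bases: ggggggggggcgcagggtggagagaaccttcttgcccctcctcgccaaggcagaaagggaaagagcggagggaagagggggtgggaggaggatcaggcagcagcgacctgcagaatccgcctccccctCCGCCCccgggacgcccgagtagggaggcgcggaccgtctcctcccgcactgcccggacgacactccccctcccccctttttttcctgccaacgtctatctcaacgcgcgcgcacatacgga
Inhba, chr13:16011601-16011850, plus strand, 250 bases: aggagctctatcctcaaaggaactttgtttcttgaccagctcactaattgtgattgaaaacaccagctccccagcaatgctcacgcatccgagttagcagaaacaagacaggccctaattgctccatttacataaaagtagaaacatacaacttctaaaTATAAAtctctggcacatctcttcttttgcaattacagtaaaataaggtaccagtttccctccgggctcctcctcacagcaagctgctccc
The Inhbb stretch was 68% G and C, the Wfikkn2 stretch 59.8% and the Inhba stretch 43.2%. The RefSeq table held 8 promoter windows for 7 of the 10 members. Each window ran from 250 bases before the start to 50 after it. The AP-1 motif TGANTCA was in 7.81% of all 32851 windows on either strand, the cAMP response element TGACGTCA in 1.79%, the ATF4 composite site TGATGNAA in 3.97% and the Smad palindrome GTCTAGAC in 0.213%. These letters were in 0 of the 8 member windows. A further 11 motifs were searched after the windows had been seen, and only the TATA and GC boxes among them are marked above. TATAAA was in 13.6% of all windows and in 3 of the 8 member windows, at 91 bases before the start in Inhba, 31 in Tgfb2 and 29 in Fstl3. The GC box GGGCGG was in 35.7% of all windows and also in 3 of the 8, those of Inhbb, Tgfb1 and Fstl3. The RefSeq start of Wfikkn2 lies inside the gene span of the count table, because that span also covers a longer transcript, so its stretch falls in an intron of that transcript. Bases of its window within an annotated exon were left out, which made the stretch shorter than the others. On GRCm38 the whole Wfikkn2 gene spans 94235956 to 94246005 of its chromosome, Inhbb 119415465 to 119422248 and Inhba 16011851 to 16031621.

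The libraries held 14188832 to 17238919 counts on genes in the pancreas and 20825177 to 27928097 in adipose tissue. The tissue labels were checked by marker genes. The 6 acinar markers, digestive enzymes of the exocrine pancreas, were summed in CPM (counts scaled to a common library size with TMM factors). Their sums were 447000 and 522000 in control pancreas and 177000 to 245000 in OA-AP pancreas, and all 6 were downregulated. The size of this drop depends on the TMM factors, which were 0.793 and 0.698 in control and 1.11 to 1.32 in OA-AP pancreas. Without them, these markers and the other most abundant genes of control pancreas, 21 in all, were compared as shares of counts. Their share was 75.1% and 77.0% in control and 56.0%, 58.7% and 58.9% in OA-AP pancreas. The adipocyte markers of the pancreas libraries reached at most 0.291% of their lowest sum in adipose tissue, and Plin1, Cidec and Lep were at 0 in the control pancreas. Control replicate 2 of adipose tissue stood apart, with 4070 CPM of acinar markers against 0.111 to 2.73 in the other 5 adipose libraries. OA-AP replicate 3 of the pancreas held 94.4 CPM of the 5 neutrophil markers against 12.3 and 3.15 in the other OA-AP libraries and 0.944 and 1.89 in the controls, and it was the highest OA-AP library for 8 of the 10 members. Member values that moved without either library are given without it below. In bulk tissue, fewer cells of a type and less RNA per cell cannot be told apart.

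Of the 10 members, 9 had enough counts to be tested in the pancreas, and 3 of them, Wfikkn2, Inhbb and Fst, met the thresholds for a differentially expressed gene (DEG), an adjusted p-value under 0.05 and a change of at least 1.5-fold. All 3 were higher in OA-AP pancreas. Over all 12884 genes tested in this tissue 29.8% were called, 16.2% as higher and 13.5% as lower. In adipose tissue all 10 members were tested and 6 were called: Inhba, Inhbb, Fst and Fstl3 as higher and Tgfb2 and Tgfb3 as lower. The background over 15839 genes there was 25.1%, with 12.1% higher and 13.0% lower. The control and OA-AP libraries did not overlap for 7 of the 9 tested members of the pancreas and 7 of the 10 of adipose tissue, against 62.3% and 52.4% of all tested genes. The members were chosen on these values, so nothing is read from the shares. Wfikkn2, Fst, Gdf15 and Inhbb had few counts in control pancreas and passed the filter on low counts through the OA-AP libraries.

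**Figure D1:**
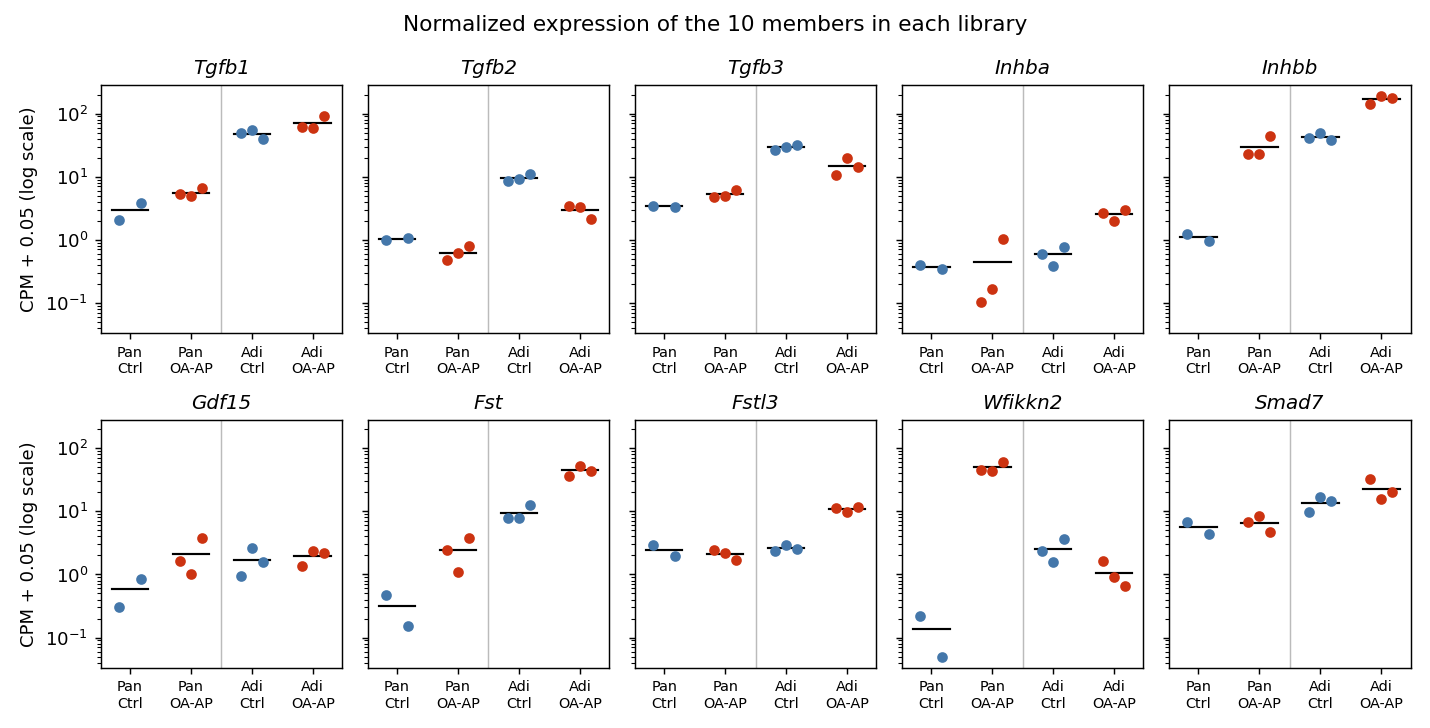
CPM of each of the 10 members in each library, with 0.05 added, on a logarithmic axis, for pancreas (Pan) and adipose tissue (Adi) of control (Ctrl, blue) and OA-AP (red) mice. Points are libraries and lines are group means: Wfikkn2 is near 0 in control pancreas and lies between 43.8 and 61.5 CPM in OA-AP pancreas, while Inhbb is higher in OA-AP in both tissues.

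Tgfb1, the TGF-beta isoform made by immune cells and many others, was low in the pancreas, at 1.97 and 3.79 CPM in control libraries and 5.25, 4.86 and 6.54 CPM in OA-AP libraries. The OA-AP libraries were all above the controls, but the log2 fold change of 0.96 ± 0.33 (SE) did not meet the thresholds. It met them without the filter on low counts, with a filter of at least 10 counts in every sample, and with library totals as the scale, where it was 1.67. The pancreas value was 0.56 without control replicate 1 and 1.49 without control replicate 2. In adipose tissue Tgfb1 was more abundant, with 49.7, 53.9 and 40.0 CPM in control and 61.3, 58.1 and 91.9 CPM in OA-AP libraries. Again the groups did not overlap and the log2 fold change of 0.56 ± 0.20 was not called. Without OA-AP replicate 2 the adipose value was 0.68 and was called.

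Tgfb2, an isoform typical of epithelial and stromal cells, stood at 9.50 ± 1.18 CPM (SD, n = 3) in control adipose tissue and at 2.89 ± 0.706 (n = 3) in OA-AP adipose tissue. The control libraries read 8.56, 9.11 and 10.8 CPM and the OA-AP libraries 3.32, 3.27 and 2.07 CPM. Every OA-AP library was thus far below every control library, with a log2 fold change of -1.72 ± 0.22. In the pancreas Tgfb2 lay under 1 CPM in every library, at 0.944 and 0.997 in control and 0.420, 0.572 and 0.732 in OA-AP libraries. This difference of -0.75 ± 0.51 on the log2 scale was not called, and it came to -0.06 when libraries were scaled by their totals alone.

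Tgfb3, the third isoform, went opposite ways in the 2 tissues. In adipose tissue it was called lower, from 26.5, 29.2 and 31.7 CPM in control to 10.7, 19.8 and 14 CPM in OA-AP libraries, a log2 fold change of -0.97 ± 0.21. In the pancreas the control libraries read 3.43 and 3.29 CPM and the OA-AP libraries 4.67, 4.81 and 6.17 CPM, a log2 fold change of 0.63 ± 0.26 that was not called. Neither tissue's groups overlapped. Without pancreas OA-AP replicate 3 the pancreas value was 0.45. In adipose tissue the call was lost without control replicate 3, at -0.89.

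Inhbb, which encodes the inhibin beta B subunit of activin B, had the largest change of the ligand genes in the pancreas. In the pancreas its control libraries held 1.2 and 0.897 CPM and its OA-AP libraries 23.0, 22.7 and 44.1 CPM. Every OA-AP library was far above both controls, with a log2 fold change of 4.81 ± 0.46 and of 4.37 without OA-AP replicate 3. In adipose tissue Inhbb rose from 41.6, 48.6 and 38.1 CPM in control to 142, 188 and 174 CPM in OA-AP libraries. The adipose groups were far apart, with a log2 fold change of 1.98 ± 0.14 and of 2.09 without control replicate 2.

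Inhba, which encodes the beta A subunit of activin A, was seen in the control pancreas with 4 and 3 counts and in the OA-AP pancreas with 1, 2 and 19 counts. It was the member removed by the filter, and only OA-AP replicate 3, at 0.994 CPM, was above the controls. In adipose tissue its libraries read 0.554, 0.339 and 0.715 CPM in control and 2.64, 1.92 and 2.93 CPM in OA-AP mice. The adipose groups did not overlap, and the log2 fold change was 2.19 ± 0.33, or 1.97 without control replicate 2.

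Gdf15, the stress-responsive ligand that acts on the brainstem receptor Gfral to lower food intake, was at 0.257 and 0.798 CPM in control pancreas and at 1.57, 0.973 and 3.71 CPM in OA-AP pancreas. The OA-AP libraries were all higher, by 2.01 ± 0.77 on the log2 scale, but the change was not called, and leaving out a library moved it from 1.26 (OA-AP replicate 3) and 1.39 (control replicate 1) to 2.99 (control replicate 2). DESeq2 called it, as did edgeR without the filter, with library totals or without OA-AP replicate 2 (2.34). In adipose tissue Gdf15 overlapped between the groups, at 0.886, 2.58 and 1.53 CPM in control and 1.30, 2.31 and 2.12 CPM in OA-AP libraries. The log2 fold change there was 0.21 ± 0.42, or 0.66 without control replicate 2.

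Wfikkn2, a secreted multidomain protease inhibitor that binds myostatin and Gdf11, had 2 and 0 counts in the control pancreas and 876, 765 and 1175 counts in the OA-AP pancreas. In CPM the OA-AP libraries stood at 46.0, 43.8 and 61.5. Both controls lay under the floor of 3 counts, which gave an increase of at least 181-fold of the OA-AP mean over the floor per library. The floor covers counting error only. The fitted log2 value of 8.98 depends on the prior count, and ranged from 8.14 to 12.69 when 1 control or the other was left out. In adipose tissue Wfikkn2 read 2.29, 1.53 and 3.54 CPM in control and 1.56, 0.865 and 0.606 CPM in OA-AP libraries. The adipose groups overlapped, and the log2 fold change of -1.29 ± 0.44 was not called. It was called by DESeq2, with library totals, without the filter, with at least 10 counts in every sample, without control replicate 2 (-1.53) and without OA-AP replicate 1 (-1.73).

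Fst, which encodes follistatin, the high-affinity activin trap, was called higher in both tissues. Adipose tissue went from 7.82, 7.80 and 12.4 CPM in control to 36.9, 53.1 and 43.9 CPM in OA-AP libraries. These groups were well apart, with a log2 fold change of 2.25 ± 0.23 and of 2.15 without control replicate 2. In the pancreas Fst rested on 5 and 1 counts in control and 45, 18 and 72 counts in OA-AP libraries. Its log2 fold change of 3.09 ± 0.80 kept the call at 2.55 without OA-AP replicate 3, and lost it without control replicate 1 (4.49), control replicate 2 (2.46) or OA-AP replicate 1 (3.10).

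Fstl3, a follistatin-like antagonist of activin and myostatin, rose in adipose tissue from 2.29, 2.84 and 2.48 CPM in control to 11.4, 9.86 and 11.7 CPM in OA-AP libraries. The groups were apart by 2.11 ± 0.16 on the log2 scale, and by 2.20 without control replicate 2. In the pancreas it read 2.83 and 1.89 CPM in control and 2.36, 2.17 and 1.67 CPM in OA-AP libraries. These overlapped, and the log2 fold change of -0.20 ± 0.36 turned to 0.51 when libraries were scaled by totals alone and to 0.13 without control replicate 1.

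Smad7, the inhibitory Smad that blocks the receptors from within the cell and is itself induced by TGF-beta, overlapped between the groups in both tissues. Pancreas libraries read 6.69 and 4.39 CPM in control and 6.77, 8.35 and 4.6 CPM in OA-AP mice, a log2 fold change of 0.24 ± 0.31 that was -0.02 without control replicate 2 and that was called, at 0.95, with library totals. Adipose libraries read 9.78, 16.9 and 14.6 CPM in control and 32.2, 15.7 and 20.3 CPM in OA-AP mice, a log2 fold change of 0.72 ± 0.31 that was not called by edgeR with all libraries. DESeq2 called it, as did edgeR without OA-AP replicate 2.

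Among the cell type marker lists, only the neutrophil list was called in full in adipose tissue. All 5 neutrophil markers were higher in OA-AP adipose tissue, where their sum was 143 to 178 CPM against 6.53 to 12.3 in control, and none was at 0 in a whole group. The macrophage markers summed to 659 to 810 CPM in control and 759 to 1140 in OA-AP adipose tissue, with 2 of 5 called higher and 1 lower. The adipocyte markers summed to 24200 to 25000 and 26900 to 28300 CPM, with Lep higher and Plin1 lower. Sums of the fibroblast, endothelial, mesothelial and ductal markers overlapped between the adipose groups. Of these markers, 1 of the fibroblast list was called lower and 1 of the ductal list higher. In the pancreas the 5 neutrophil markers had fitted log2 fold changes from 2.40 to 8.91, and Retnlg was at 0 in both controls. By edgeR 0 of the 5 met the DEG thresholds and 1 had an unadjusted p-value under 0.05, while DESeq2 called 4. The part of these cells in the members' changes was not tested.

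**Figure D2:**
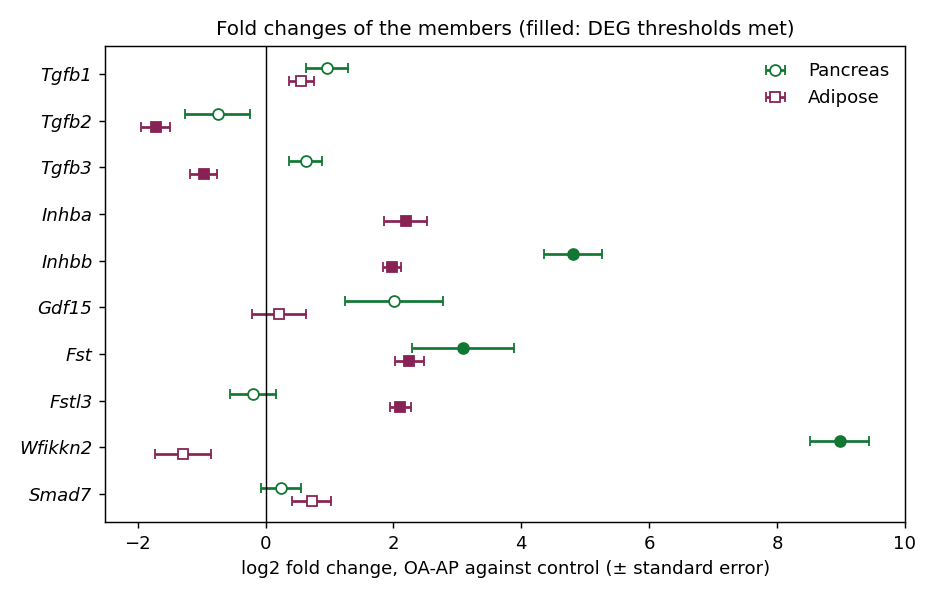
Log2 fold change of OA-AP against control for each member in pancreas (green circles) and adipose tissue (purple squares), with standard errors and with filled symbols where the DEG thresholds were met; Inhba was not tested in the pancreas. Tgfb3 lies on opposite sides of 0 in the 2 tissues, at 0.63 and -0.97, and the Wfikkn2 pancreas value of 8.98 rests on controls under the count floor.

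Levels were compared between genes as CPM per kilobase of the deposited gene length. In control pancreas every member was low, with Smad7 highest at 1.23 ± 0.36 CPM per kb (SD, n = 2), then Tgfb3 at 0.994, Fstl3 at 0.966 and Tgfb1 at 0.571. The libraries of Smad7, Tgfb3 and Fstl3 overlapped in turn. Wfikkn2 was lowest, at 0.0224 CPM per kb. In OA-AP pancreas the order had Wfikkn2 first at 13.2 ± 2.52 CPM per kb (n = 3) and Inhbb second at 7.04 ± 2.89, with no overlap between the pair or between Inhbb and Tgfb3, which followed at 1.54. From Tgfb3 down to Fst, each gene overlapped the next. In control adipose tissue Inhbb at 8.94 to 11.4 CPM per kb, Tgfb1 at 9.49 ± 1.41 (n = 3) and Tgfb3 at 8.60 ± 0.768 overlapped in turn and lay clear of Smad7 at 3.05. In OA-AP adipose tissue Inhbb stood alone at 39.6 ± 5.55 CPM per kb, followed by Tgfb1 at 14 ± 3.69 and Fst at 9.73 ± 1.77, which overlapped. Tgfb3 had dropped to 4.38 CPM per kb there, and Wfikkn2 was lowest at 0.264.

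Whether a change differed between the tissues was asked with the tissue by condition term of a fit over all 11 libraries. The fit takes them as independent, although a pancreas and an adipose sample with the same number may share a mouse, which the labels leave unsaid. Over 17046 genes, 21.3% were called at an adjusted p-value under 0.05, and 4 of the 10 members were. Wfikkn2 (a log2 difference, pancreas minus adipose, of 10.37 ± 0.80), Inhbb (2.85 ± 0.48) and Tgfb3 (1.61 ± 0.35) had the higher change in the pancreas, and Fstl3 (-2.30 ± 0.35) had it in adipose tissue. The members were chosen on the same counts, and Wfikkn2 had almost none in control pancreas, so these calls are descriptions and not evidence of a difference. The other members were not called, with differences from -1.89 ± 1.23 for Inhba to 1.83 ± 0.94 for Gdf15. On simulated data this term found 53 of 100 genes with a 4-fold difference and 6 of 100 with a 2-fold difference. A missed call therefore says little. The simulation started each gene at the same level in both tissues, while Fst averaged 0.264 CPM in control pancreas and 9.34 in control adipose. The simulated rates need not hold for such genes. The simulation also changed only 200 of 16575 genes, while 21.3% were called here. Adjusted p-values depend on that share, so the rates may differ in these data.

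The rest of the pathway was described by 6 lists of 115 genes in all. In the pancreas 79 of them were tested, 23 were upregulated and 8 downregulated, which is 39.2% against the 29.8% of all genes, with a median log2 fold change of 0.27 against 0.04. In adipose tissue 93 were tested, with 17 upregulated and 17 downregulated, or 36.6% against 25.1%, and a median of 0.01 against -0.01. All p-values below are edgeR quasi-likelihood values adjusted over all genes tested in the tissue. Those of the tissue by condition term were adjusted over the 17046 genes of its fit.

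Among other ligands, 2 of 8 tested genes were called in the pancreas, both lower, and 5 of 13 in adipose tissue, all lower. Inha, the alpha subunit that joins a beta subunit to form inhibin, fell in both tissues. It went from 7.55 and 5.18 CPM in control pancreas to 1.68, 1.66 and 1.83 CPM in OA-AP pancreas (log2 fold change -1.88 ± 0.29, adjusted p = 0.00217), and by -1.49 ± 0.26 in adipose tissue (adjusted p = 0.00543). Lefty1, an inhibitor of nodal signalling, fell in the pancreas by 2.23 on the log2 scale (adjusted p = 0.00349) and stood at -0.13 in adipose tissue. Gdf10 fell in adipose tissue from 44.0 ± 11.1 to 8.21 ± 2.98 CPM (n = 3 each, adjusted p = 0.00194), and Bmp6 from 35.7 ± 2.14 to 17.7 ± 2.03 CPM (adjusted p = 0.00125).

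Among other antagonists, 3 of 12 were called in the pancreas, 1 higher and 2 lower, and 4 of 13 in adipose tissue, all lower. Chrd, which encodes the BMP antagonist chordin, rose in the pancreas from 1.63 and 1.70 CPM to 5.83, 6.75 and 6.49 CPM (adjusted p = 0.00134) and fell in adipose tissue by 0.66 on the log2 scale (adjusted p = 0.0352). The adipose call of Chrd was lost without control replicate 1 or 3 or without OA-AP replicate 2 or 3. Sostdc1, a BMP and Wnt antagonist, went from 52.9 and 48.6 CPM in control pancreas to 2.94, 5.09 and 0.575 CPM (log2 fold change -4.16 ± 0.68, adjusted p = 0.00951). This call was lost when either control was left out and without the filter on low counts. Dcn, the matrix proteoglycan decorin that binds TGF-beta, fell in adipose tissue from 1610 ± 155 to 853 ± 157 CPM (adjusted p = 0.00723). Nbl1, a DAN family BMP antagonist, fell there by 1.23 on the log2 scale (adjusted p = 0.0111). It was also called lower in the pancreas, at -1.42. That pancreas call was lost with library totals (-0.71) and when either control was left out.

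Among genes of latency and activation, 3 of 13 were called in the pancreas, 2 higher and 1 lower, and 6 of 13 in adipose tissue, 4 higher and 2 lower. Furin, the protease that cleaves the ligand precursors, rose in the pancreas from 50.5 ± 6.53 (n = 2) to 106 ± 19.6 CPM (n = 3, adjusted p = 0.00369), a call lost without control replicate 1, and in adipose tissue from 78.1 ± 2.74 to 132 ± 5.17 CPM (adjusted p = 0.00118). Of the latent TGF-beta binding proteins, Ltbp1 fell in adipose tissue from 51.8 ± 2.23 to 25.6 ± 2.74 CPM (adjusted p = 0.000804) and Ltbp4 fell in the pancreas by 1.23 on the log2 scale (adjusted p = 0.0031). The Ltbp4 call was lost without control replicate 1 and with library totals, where the value was -0.52. Thbs1, whose product thrombospondin 1 can release latent TGF-beta, read 4.98 and 9.77 CPM in control pancreas and 42.3, 38.7 and 153 CPM in OA-AP pancreas (adjusted p = 0.0447). The call was lost without either control, without OA-AP replicate 2 and without the filter on low counts. Without OA-AP replicate 3 the Thbs1 log2 fold change moved from 3.41 to 2.43 and stayed called. Itgb8, an integrin subunit that activates latent TGF-beta, rose in adipose tissue by 1.95 ± 0.44 (adjusted p = 0.0139), a call lost without control replicate 1 or 3.

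Among receptors, 5 of 13 were called in the pancreas, 4 higher and 1 lower, and 5 of 14 in adipose tissue, again 4 higher and 1 lower. The receptor called lower was Acvr1c in both tissues, which encodes the type I receptor ALK7 that can bind activin B. It fell from 331 ± 47.1 to 46.3 ± 13.2 CPM in adipose tissue (log2 fold change -2.84 ± 0.24, adjusted p = 0.000562) and from 8.07 and 10.9 to 3.62, 2.29 and 2.09 CPM in the pancreas (-1.82 ± 0.30, adjusted p = 0.00297). The pancreas call was lost without control replicate 2. Tgfbr2, the type II TGF-beta receptor, rose in adipose tissue from 186 ± 18.1 to 391 ± 25.5 CPM (adjusted p = 0.00113). It was also called higher in the pancreas, by 1.46 on the log2 scale, a call lost without control replicate 2. Tgfbr1 and Acvr1b, named after their values were seen, were called higher in both tissues too. Their pancreas calls were lost when either control was left out, and the adipose call of Tgfbr1 held in 8 of 13 other settings. Bmpr2, a type II BMP receptor, rose in the pancreas from 14.9 and 15.6 to 29.3, 27.0 and 27.9 CPM (adjusted p = 0.00238). The Bmpr2 value of 0.56 in adipose tissue was not called.

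The list of Smads and their regulators had the largest called share of the 6 in the pancreas, 11 of 16 tested or 68.8%, with 10 higher and 1 lower. In adipose tissue it had the smallest, 3 of 18 or 16.7%, with 2 higher and 1 lower. Called genes in the pancreas included the transcriptional corepressors Ski (log2 fold change 1.73 ± 0.18, adjusted p = 0.000466), Skil (2.44 ± 0.25, adjusted p = 0.000502) and Tgif1 (3.27 ± 0.41, adjusted p = 0.00198), which restrain Smad activity. Tgif1 went from 5.06 and 6.08 CPM in control to 41.5, 38.2 and 80.8 CPM in OA-AP pancreas. Of the Smads themselves, Smad1 (2.11), Smad3 (1.43) and Smad4 (1.21) were also called higher in the pancreas. The Smad3 call was lost without control replicate 2. Smad2 (-0.08) and Smad5 (0.46) were not called. Smad2 to Smad5 were named after their values were seen. Smad6, an inhibitory Smad like Smad7, was the member of the list called lower, by 0.99 on the log2 scale (adjusted p = 0.0452). The Smad6 call was kept in 6 of 12 other settings, and was lost with library totals (-0.26), without either control and without OA-AP replicate 1 or 2. All 11 calls were kept without OA-AP replicate 3, and 6 were kept without control replicate 2. In adipose tissue Smurf1, a ubiquitin ligase for Smads and receptors, fell from 81.3 ± 3.51 to 49.6 ± 0.353 CPM (adjusted p = 0.00111), while Smad1 and Skil rose by 0.66 (adjusted p = 0.0215) and 0.90 (adjusted p = 0.0421) on the log2 scale. Those Smad1 and Skil calls were lost in 6 and 7 of the 13 other settings.

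Among known target genes, 7 of 17 were called in the pancreas, 6 higher and 1 lower, and 11 of 22 in adipose tissue, 7 higher and 4 lower. Many of these genes also answer to other signals. Klf10, an early TGF-beta response gene, rose in the pancreas from 6.78 and 7.38 to 48.0, 56.6 and 46.9 CPM (log2 fold change 2.83 ± 0.17, adjusted p = 5.82e-05). Cdkn1a, the cell cycle inhibitor p21, rose there by 5.94 ± 0.38 (adjusted p = 0.000132). Klf10 and Cdkn1a were also called higher in adipose tissue, by 0.72 and 1.68 on the log2 scale. In adipose tissue Snai1, a transcription factor gene, rose from 4.43 ± 0.294 to 26 ± 6.34 CPM (adjusted p = 0.000434). Junb, a subunit of the AP-1 factor, rose there by 2.45 ± 0.18 on the log2 scale (adjusted p = 0.000347). Junb was also called higher in the pancreas, by 4.93, while the Snai1 value there, 1.88, was not called. The 4 called lower in adipose tissue were the collagen genes Col1a1, Col1a2 and Col3a1 and the Snai1 relative Snai2, named after their values were seen, with log2 fold changes of -1.07, -0.88, -0.81 and -0.83. The Col1a1 call was lost without control replicate 3, and that of Snai2 without control replicate 1 or 2 or OA-AP replicate 3.

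**Figure D3:**
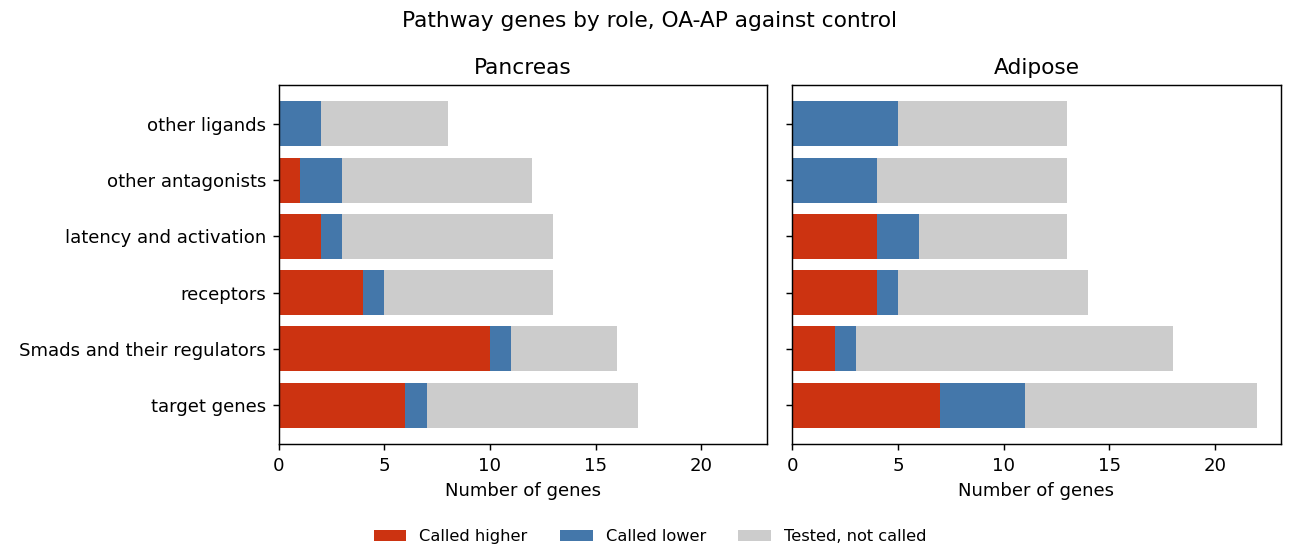
Number of genes in each of the 6 pathway lists that were called higher (red), called lower (blue) or tested and not called (grey) in OA-AP against control, for pancreas and adipose tissue. The Smads and their regulators have 10 genes called higher in the pancreas but 2 in fat.

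The tissue by condition term called 24 of 98 pathway genes, or 24.5% against 21.3% of all genes. The change was higher in the pancreas for 17 and higher in adipose tissue for 7. Chrd and Smurf1 were called in opposite directions in the 2 tissues. Smurf1 rose in the pancreas by 0.73 ± 0.17 (adjusted p = 0.0123) and fell in adipose tissue by 0.71, with a log2 difference of 1.46 ± 0.17 (edgeR adjusted p = 0.00017). For Chrd the difference was 2.61 ± 0.33 (edgeR adjusted p = 0.000313). Both pancreas and interaction calls of Chrd were kept in every other setting run, as was the interaction call of Smurf1, whose pancreas call was lost without control replicate 2 or OA-AP replicate 1.

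**Figure D4:**
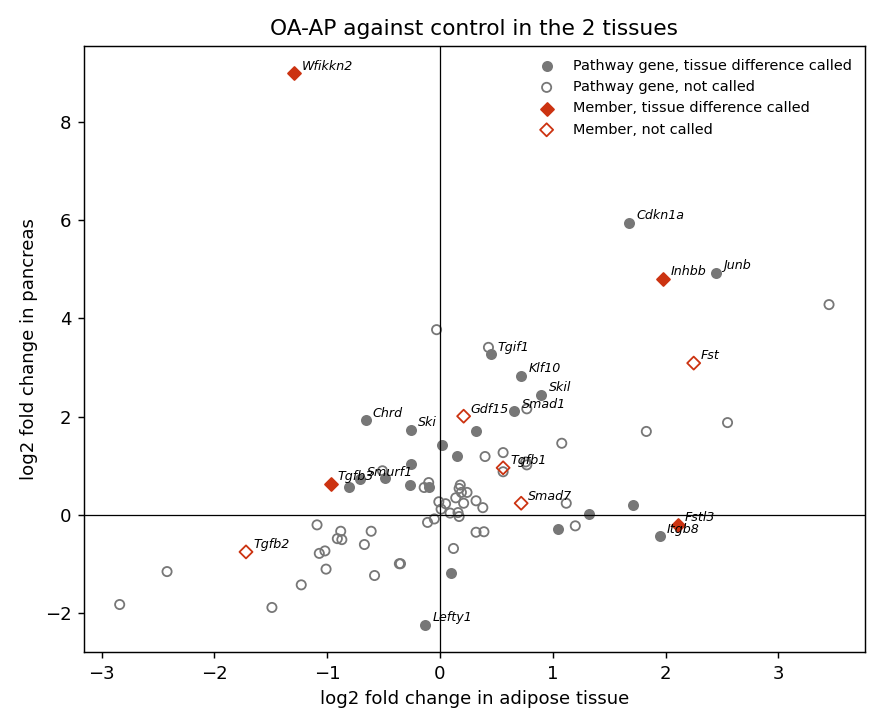
Log2 fold change in the pancreas against that in adipose tissue for the 9 members (red diamonds) and 75 pathway genes (grey circles) tested in both, with filled symbols where the tissue by condition term was called. Chrd, Smurf1, Tgfb3 and Wfikkn2 are among the genes above 0 in the pancreas and below 0 in adipose tissue. Tgfb3 was not called in the pancreas, nor Wfikkn2 in adipose tissue.

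For 4 members the genes with the most similar pattern were found by the root mean square difference of gene-centred log2 CPM over the 11 libraries, where a smaller value means a closer pattern. These are descriptions, since the libraries share their tissues and scaling. Closest to Wfikkn2 were Foxq1 (0.99), 1700030A11Rik (1.26) and Chil5 (1.35), all with a mean of 0 CPM in control pancreas. Closest to Inhba were Dio3 (0.60), Cyp7b1 (0.61) and Htr2a (0.63). These were low in the pancreas, with group means of at most 0.835 CPM, and were not tested there. Closest to Fst were Plaur (0.49), Slc10a6 (0.50) and Tubb6 (0.51), and closest to Gdf15 were Ceacam1 (0.40), Abcc3 (0.44) and Ubald2 (0.46). Plaur, which encodes the urokinase receptor, went from 0.400 to 4.76 CPM in the pancreas and from 15.0 to 48.8 CPM in adipose tissue as group means.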

How the data were processed

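Total RNA of pancreas and epididymal adipose tissue was sequenced by the authors. The authors trimmed reads with Trim Galore (0.6.6), checked them with fastp (0.20.1), mapped them to GRCm38 with STAR and counted them with featureCounts (2.0.1), versions being from the submitters' processing notes. The authors deposited whole-number counts per gene without normalization, and a gene length beside the pancreas counts, used here for levels per kilobase in both tissues. The annotation release and strand setting were not given in the sources used here.

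Samples were grouped by their labels. Genes with low counts were removed with filterByExpr and libraries scaled with TMM factors in edgeR (4.0.16, R 4.3.3). Each tissue was tested apart with the robust quasi-likelihood test, and the tissue by condition term in a fit of all 11 libraries. A DEG needed a p-value under 0.05 after Benjamini-Hochberg adjustment and a change of at least 1.5-fold, and interaction calls the p-value alone. Standard errors are the log2 fold change over the square root of F. Where nothing says that libraries are separate animals, p-values measure only the spread between them. Alternatives were DESeq2 (1.42.0), other scalings, filters and fold thresholds, a replicate block, and each library left out. Members and lists were chosen with earlier results of these data known. Named pathway genes were, per list and tissue, the 2 called genes with the smallest p-value and the called gene with the largest change, plus those called in opposite directions; an item under this rule is not reported here. On simulated data with 200 changed genes the pancreas test found 85 of 100 at 4-fold and 32 of 100 at 2-fold (10 of 127 calls false, 12658 genes), and the adipose test 92 and 59 (17 of 168 false, 15591 genes). Each simulation changed a smaller share of genes than was called here, so its rates need not hold for these data. An acceptance limit of 60 of 100 at 4-fold was set at first for all 3 tests. The tissue by condition test missed that limit (53 of 100), and it was replaced by limits on bias and false calls.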

Additional observations from a re-analysis of the deposited data

Results flagged for a closer look

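The changes of 11 pathway genes named under the rule given above differed between the tissues by the tissue by condition test of edgeR. In log2 differences, pancreas minus adipose, with adjusted p-values, they were Cdkn1a at 4.27 (0.00109), Tgif1 at 2.83 (0.0008), Chrd at 2.61 (0.000313), Junb at 2.49 (0.00422), Klf10 at 2.13 (0.000215), Ski at 2.00 (0.000113), Skil at 1.55 (0.0234), Smad1 at 1.46 (0.0144), Smurf1 at 1.46 (0.00017), Lefty1 at -2.10 (0.0103) and Itgb8 at -2.37 (0.0296). Of the 17 other settings run, the Itgb8 call held in 5, Skil in 14, Smad1 in 15 and Lefty1 in 16. Tgfb3 was higher in every OA-AP library of the pancreas and lower in every OA-AP library of adipose tissue than in controls, a log2 difference of 1.61. As Tgfb3 was chosen with these values known, the difference is a description.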

How the results depend on the processing

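No result changed to the opposite call. With library totals replacing TMM, the median log2 fold change over all genes moved from 0.04 to 0.75 in the pancreas and from -0.01 to -0.17 in adipose tissue. The share of calls that were higher then moved from 54.5% to 92% and from 48.1% to 32.1%. Under this scaling the pancreas had 6349 DEGs in place of 3834, 47 pathway genes in place of 31 and 7 members in place of 3, and the tissue by condition term 6662 calls in place of 3636. Without a filter on low counts 5 members were called in the pancreas. With at least 10 counts in every sample 1 was, Tgfb1, as that filter removes Wfikkn2, Inhbb and Fst. At a 2-fold threshold DEGs were 2464 in the pancreas and 2228 in adipose tissue, and adipose pathway calls 21 in place of 34. Leaving out each library in turn gave 1495 to 4265 DEGs, 17 to 34 pathway genes and 2 to 4 members in the pancreas, with 1495 and 1687 DEGs and 17 and 20 pathway genes without control replicates 2 and 1. In adipose tissue it gave 2865 to 4476 DEGs, 22 to 39 pathway genes (22 without control replicate 3) and 5 to 8 members, and for tissue by condition 2334 to 3857 calls (2334 without pancreas control replicate 2). With 1 control left, that sample was assumed to vary like the others. The causes were not tested. Replicate numbers did not pair control and OA-AP samples, which were treated differently and cannot share a mouse (correlations of same-numbered deviations from -0.16 to 0.06). With the replicate block DEGs were 4099 in the pancreas, 3477 in adipose tissue and 3108 for tissue by condition, pathway genes 33 and 31, and members 4 and 6. Under it Tgfb1 was called in the pancreas, and the pancreas call of Smad6 and the adipose calls of Chrd and Skil were lost. With same-numbered samples of the 2 tissues taken as 1 mouse, an alternative chosen after seeing the data, the tissue by condition term made 2156 calls, and those of Smad1 and Itgb8 were lost. The pancreas had 2 control libraries, and Wfikkn2, Fst, Inhba, Gdf15 and Inhbb had under 10 counts in a control. Pancreas fold changes of these genes are limited by depth, and Inhba was not tested there.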
